A study of Mus musculus with 32 samples.

Results

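The 10 genes described here encode the enzymes that write, copy and remove DNA methylation in mouse cells, and they were taken by name from the 21829 mouse genes of the deposited table. They are the methyltransferase genes Dnmt1, Dnmt3a and Dnmt3b, the cofactor genes Uhrf1, Uhrf2 and Hells, the dioxygenase genes Tet1, Tet2 and Tet3, and the glycosylase gene Tdg. The cells were EL08-1D2, a mouse mesenchymal stromal line derived from embryonic liver, and RNA was taken from cells grown without azacitidine (16 libraries) or with it (16 libraries). Both groups are the same line and differ in the drug alone as far as the labels say, and dose and duration are not given in the sources used here. The values are counts of unique molecular identifiers (UMIs), which count each captured cDNA molecule once, and n = 16 per group applies below unless another n is given.

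In mammalian cells DNMT3A and DNMT3B set new methyl groups on cytosine, and DNMT1 copies them to the daughter strand after replication. UHRF1 brings DNMT1 to hemimethylated sites, and the remodeller HELLS opens packed chromatin for methylation. TET enzymes oxidise 5-methylcytosine, and TDG cuts out the oxidised bases so that repair restores cytosine. Azacitidine is a cytidine analogue that, once built into DNA, traps DNA methyltransferases as covalent adducts, after which the DNMT1 protein is degraded. The comparison asks how the drug changed the transcripts of the stromal cells, and RNA counts carry no information on the amount of enzyme.

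The libraries held 818619 to 3210801 UMIs without and 1226861 to 5039721 with azacitidine. Whether each library is a culture of its own is not stated, and p-values here describe the spread between libraries, which may be technical. Libraries were taken by replicate number in runs of 4 (1 to 4, 5 to 8, 9 to 12 and 13 to 16), and were more alike within than between runs. The mean correlation across genes, after removal of the group means, was 0.08 within and -0.10 between runs without the drug, and 0.34 and -0.16 with it. Likeness within runs was thus slight without the drug. The labels do not say what a run is. A set of 5 libraries, 2 untreated (numbers 1 and 2) and 3 treated (numbers 1, 2 and 4), lay apart on the principal component that carried most variance (scores of 0.258 to 0.419 against at most 0.103 in the other 27). Of 9 stromal markers 8 averaged over 1 CPM (UMIs of a gene scaled to a common library size), with Col3a1 and Vim at the most UMIs, while Thy1 had 0 UMIs without and 26 with the drug. Summed, the stromal markers ranged from 8470 to 11260 CPM without and from 5727 to 9533 CPM with azacitidine, and edgeR, the count test used here (adjusted p under 0.05), called 3 of the 8 tested, the collagens Col1a1, Col1a2 and Col3a1, as lower with it. Of the blood, endothelial, epithelial and hepatocyte markers, Ptprc had 1 and 4 UMIs, Pecam1 had 2 and 6, Epcam had 0 and 1 and Afp had 3 and 26, without and with azacitidine. The summed blood markers, mostly Itgam and Hba-a1, ranged from 3.86 to 11.7 CPM without and from 3.12 to 17.1 CPM with the drug, and the part of either list in the results was not tested. Rhox5, a homeobox gene known to be silenced by DNA methylation, separated the groups and rose from 7.97 ± 1.43 to 126 ± 36.6 CPM (mean ± SD). On the log2 scale it rose by 3.98 (SE 0.13, edgeR, adjusted p = 2.7e-24). Its lowest library with the drug, at 91.6 CPM, stood above its highest without, at 10.2 CPM.

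None of the 10 genes was called as changed. The main test was edgeR's quasi-likelihood test with a Benjamini-Hochberg adjusted p under 0.05. Its filter on low counts kept 7 of the 10 genes, and 0 of these 7 were called, where 5.65% of all 9344 genes tested were. At an unadjusted p under 0.05 it gave 1 of the 7, Tet2, where 17.1% of all genes tested passed that bound. Dnmt3b, Tet1 and Tdg fell under the filter and were read from the same test on all 21822 genes with a count. There 0 of the 3 were called, where 3.94% of all genes were, and Tdg alone was under 0.05 unadjusted, where 13.3% of all genes were. DESeq2, which called 6.05% of all genes, and limma-voom, with 5.93%, also called 0 of the 10. So did the settings that left libraries out, with 6.08% of all genes called without the 5 libraries that lay apart and 6.27% without numbers 1 to 4. It was again 0 with other terms or units of replication: 9.6% of all genes were called with the replicate number as a term, 10.6% with the run as a term, 0.879% with the libraries of each run summed, and 1.9% with an estimated correlation within runs. Other size factors (5.69%) gave 0 as well, and so did a filter at a mean of 5 UMIs (5.68%), which kept 8 of the 10 genes. The shares of these alternatives are over the genes past each filter. Dnmt3b and Tet1, and Tdg except with the filter at 5 UMIs, were read from fits with no filter, whose shares are not given here. The 7 genes tested all had a point estimate under 0, with a median log2 fold change of -0.13, where 4651 of all 9344 genes were under 0 and the median was 0.00075. For each gene the data thus give a level and an interval for the difference.

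**Figure D1:**
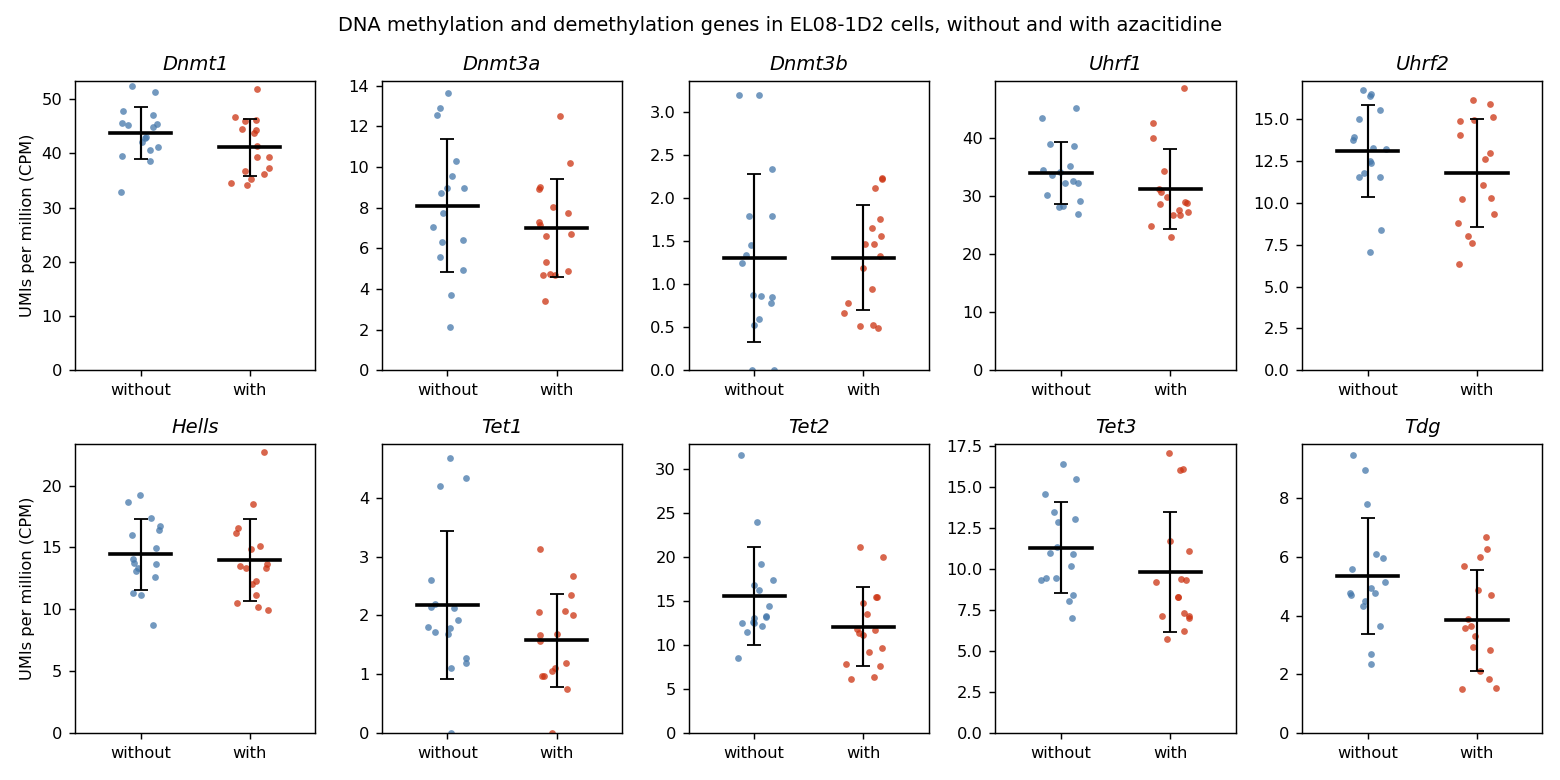
Level in CPM (linear axes from 0) of the 10 genes in the 16 libraries without (blue) and the 16 with azacitidine (red). Each point is 1 library, a wide bar marks the group mean and thin bars 1 SD to each side; in every panel the groups overlap, as in Dnmt1 at 43.8 and 41.1 CPM.

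Dnmt1, which copies methylation and is the main target of the drug, gave the most UMIs of the 10 genes and hence the tightest bound. It lies on chromosome 9 (20907209 to 20959888, mm10, ENSMUSG00000004099) and had 1176 UMIs without and 1512 with azacitidine. In CPM, computed with normalised library sizes, the libraries without the drug had a lowest, median and highest level of 32.8, 44.0 and 52.4, and those with it had 34.1, 40.3 and 51.8. The range with the drug thus lay inside the range without it, and 10 of 16 treated libraries were below the untreated median. The means were 43.8 ± 4.86 and 41.1 ± 5.26 CPM, a log2 fold change of -0.10 with a 95% interval from -0.23 to 0.04 (edgeR, adjusted p = 0.50). In folds this is 0.934, from 0.851 to 1.03. When the libraries of each run and group were summed, which leaves 4 against 4 sums, the interval widened to -0.31 to 0.11.

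Among the runs, the estimate for Dnmt1 lay farthest from 0 in numbers 1 to 4 and within 1 SE of 0 in the others. Within numbers 1 to 4 it averaged 47.2 ± 3.94 CPM without and 37.5 ± 4.70 with the drug (n = 4 each), a log2 fold change of -0.35 (SE 0.12). In the other 3 runs the log2 fold changes were -0.03 (SE 0.13), 0.02 (SE 0.14) and -0.01 (SE 0.13). Numbers 1 to 4 hold the 5 libraries that lay apart, and without those 5 the fold change was -0.02 with an interval from -0.16 to 0.12. The difference between runs itself was not called (edgeR interaction of run and drug, adjusted p = 0.52, where 3.02% of 9344 genes were called).

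Uhrf1, the reader of hemimethylated DNA that recruits DNMT1, also had enough UMIs for a close bound. It lies on chromosome 17 (56303321 to 56323486) and had 888 UMIs without and 1175 with azacitidine. Its lowest, median and highest levels were 27.0, 33.2 and 45.3 CPM without the drug and 23.0, 29.0 and 48.6 CPM with it. Of the treated libraries 4 were under the lowest untreated one and 1 was above the highest. The means of 34.0 ± 5.35 and 31.3 ± 6.91 CPM gave a log2 fold change of -0.11 with an interval from -0.30 to 0.08 (edgeR, adjusted p = 0.63), or 0.811 to 1.06 in folds.

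The runs went both ways in Uhrf1. The log2 fold change was -0.44 (SE 0.14) in numbers 1 to 4, 0.24 (SE 0.14) in 5 to 8, 0.03 (SE 0.16) in 9 to 12 and -0.27 (SE 0.15) in 13 to 16. All 4 treated libraries of numbers 1 to 4 lay between 23.0 and 27.7 CPM, and 3 of the 4 treated libraries of numbers 5 to 8 were at 40.0, 42.7 and 48.6 CPM. The interaction of run and drug had the lowest p of the 7 genes (edgeR, unadjusted p = 0.0086, adjusted p = 0.15) and was not called. Without numbers 1 to 4 the fold change of Uhrf1 was 0.03 with an interval from -0.17 to 0.24.

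**Figure D2:**
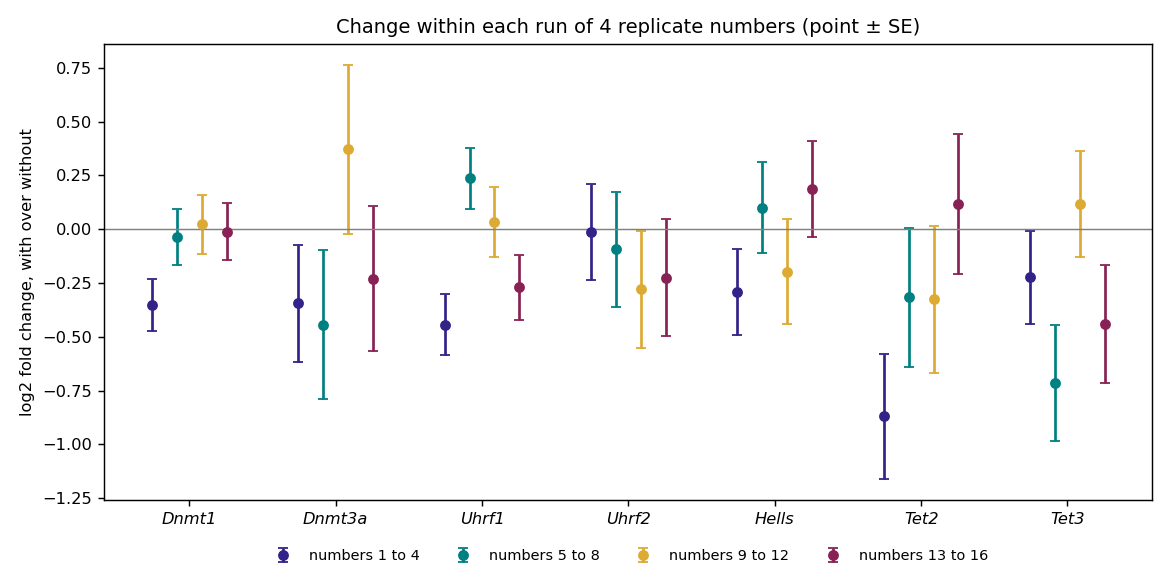
Log2 fold change (with over without azacitidine, ± SE) of the 7 genes that passed the filter on low counts, within each run of 4 replicate numbers (4 against 4 libraries). Dnmt1 lies farthest from 0 in numbers 1 to 4 (-0.35), Uhrf1 runs from -0.44 to 0.24, and Tet2 from -0.87 to 0.12.

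Uhrf2, a relative of Uhrf1 that does not replace it in maintenance, had 351 and 462 UMIs without and with the drug. Its level was 13.1 ± 2.75 CPM without and 11.8 ± 3.22 with azacitidine, with libraries from 7.05 to 16.8 and from 6.35 to 16.2. With the drug it stood at a log2 fold change of -0.13, with an interval from -0.40 to 0.13 (edgeR, adjusted p = 0.67), and at -0.01, -0.09, -0.28 and -0.22 in the 4 runs. Without the 5 libraries that lay apart it was -0.27 with an interval from -0.55 to 0.01 (edgeR, adjusted p = 0.30). The ranges of the groups overlapped over most of their width, and each run carried an SE of 0.22 to 0.27.

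Hells, whose product is needed for methylation of repeats, had the point estimate nearest 0 among the 7 genes. Its chromosome 19 locus (38930915 to 38971051) gave 383 UMIs without and 521 with the drug. The lowest, median and highest levels were 8.70, 13.9 and 19.2 CPM without and 9.94, 13.4 and 22.7 CPM with azacitidine, so that a single treated library exceeded the untreated range. Its log2 fold change was -0.04 with an interval from -0.27 to 0.19 (edgeR, adjusted p = 0.92), or 0.828 to 1.14 in folds. Within the runs it was -0.29, 0.10, -0.20 and 0.19.

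The de novo methyltransferase genes were sparser and their bounds wider. Dnmt3a, on chromosome 12 (3806007 to 3914443), had 213 UMIs without and 267 with azacitidine, between 2 and 43 per library. Its levels ran from 2.10 to 13.7 CPM (median 8.25) without and from 3.41 to 12.5 CPM (median 6.93) with the drug. The treated range lay inside the untreated one, and 12 of 16 treated libraries were under the untreated median. This gave a log2 fold change of -0.19 with an interval from -0.56 to 0.17 (edgeR, adjusted p = 0.66), or 0.678 to 1.13 in folds, and it was -0.30 without the 5 libraries that lay apart. The runs gave -0.35, -0.44, 0.37 and -0.23, each with an SE of 0.27 to 0.39.

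Dnmt3b, on chromosome 2 (153649450 to 153687730), was near the limit of detection. It had 34 UMIs without the drug, from 14 of 16 libraries, and 50 UMIs with it, from 16 of 16. Over the summed libraries this is 1.24 CPM (exact Poisson interval 0.861 to 1.74) without and 1.30 (0.968 to 1.72) with azacitidine, and the intervals cover counting error only. Its log2 fold change was 0.06 with an interval from -0.59 to 0.70 (edgeR with no filter, adjusted p = 0.95). In folds the interval ran from 0.664 to 1.63, and the data do not tell changes within it apart.

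All 3 TET genes had lower means with azacitidine, and none was called. Tet2, on chromosome 3 (133463679 to 133545139), had 396 UMIs without and 418 with the drug. Its lowest, median and highest levels were 8.48, 13.2 and 31.6 CPM without and 6.09, 11.5 and 21.1 CPM with azacitidine. Of the treated libraries 4 were under the lowest untreated one, and 2 untreated libraries, number 4 at 31.6 and number 12 at 24.0 CPM, were above every treated one. The means of 15.6 ± 5.61 and 12.1 ± 4.47 CPM gave a log2 fold change of -0.37 (SE 0.17) with an interval from -0.71 to -0.03 (edgeR, unadjusted p = 0.032, adjusted p = 0.23).

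The interval of Tet2 stayed under 0 with DESeq2 (-0.70 to -0.04), limma-voom (-0.75 to -0.11) and the run as a term (edgeR, -0.71 to -0.04), and reached 0 when libraries were left out or summed. It ran from -0.61 to 0.10 without the 5 libraries that lay apart, from -0.53 to 0.18 without numbers 1 to 4, from -0.69 to 0.0044 with the sums of runs, and from -0.92 to 0.07 with an estimated correlation within runs (limma-voom). Within the runs the log2 fold changes were -0.87 (SE 0.29), -0.32 (SE 0.32), -0.33 (SE 0.34) and 0.12 (SE 0.32). Numbers 1 to 4 had 18.9 ± 8.62 CPM without and 9.66 ± 2.52 with the drug, a run that includes the untreated library at 31.6 CPM.

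Tet3, on chromosome 6 (83362373 to 83459084), had 316 UMIs without and 356 with azacitidine. Its libraries lay between 7.03 and 16.4 CPM (median 10.9) without and between 5.72 and 17.1 CPM (median 8.76) with the drug. The difference was -0.26 on the log2 scale with an interval from -0.56 to 0.04 (edgeR, adjusted p = 0.38). It was -0.22, -0.72, 0.12 and -0.44 in the runs, where numbers 5 to 8 had 10.9 ± 2.07 CPM without and 6.51 ± 0.67 with the drug (n = 4 each). Without numbers 1 to 4 the fold change was -0.34 with an interval whose upper bound was 0.0003 (edgeR, adjusted p = 0.26). The interval lay under 0 with limma-voom (-0.62 to -0.05), with the run as a term (edgeR, -0.55 to -0.02) and with an estimated correlation within runs (limma-voom, upper bound -0.008). It reached 0 with the sums of runs (-0.77 to 0.17) and without the 5 libraries that lay apart (-0.53 to 0.15). The RNA B230319C09Rik, which lies on the other strand inside the Tet3 locus, had 20 and 36 UMIs, and whether the counting kept strand is not stated.

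Tet1, on chromosome 10 (62804570 to 62908996), had 54 UMIs without and 58 with azacitidine, and 15 of 16 libraries in each group had at least 1. Over the summed libraries it stood at 1.98 CPM (exact Poisson interval 1.48 to 2.58) without and 1.51 (1.15 to 1.96) with the drug. The Poisson intervals again cover counting error only. For Tet1 the log2 fold change was -0.38 with an interval from -0.95 to 0.20 (edgeR with no filter, adjusted p = 0.60). Without numbers 1 to 4 the log2 fold change was -0.04. The mean of numbers 1 to 4 was 3.21 ± 1.52 CPM without and 1.22 ± 0.31 with azacitidine.

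**Figure D3:**
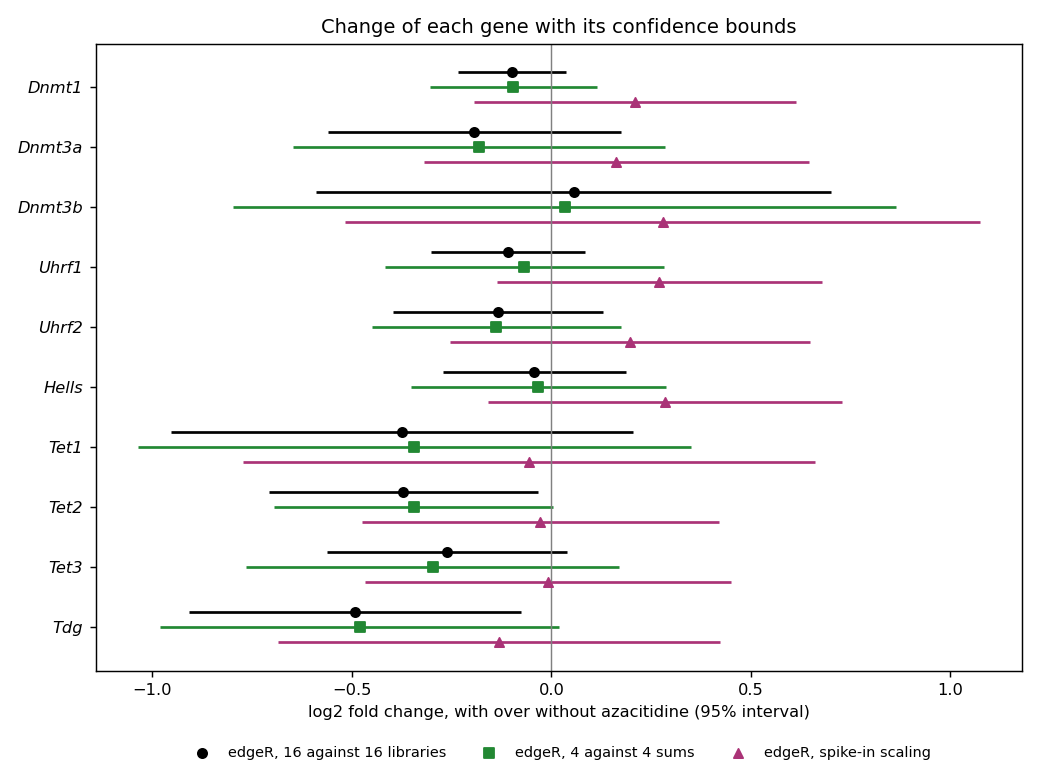
Log2 fold change (with over without azacitidine) of the 10 genes with 95% intervals, from 16 against 16 libraries (black), from 4 against 4 sums of runs (green) and after scaling by spike-in RNA (purple). The Dnmt1 interval is the narrowest (-0.23 to 0.04) and the Dnmt3b interval the widest (-0.59 to 0.70) of the black ones; spike-in scaling moves each point to the right of the black one, Dnmt1 to 0.21.

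Tdg had the point estimate farthest from 0 of the 10 genes, and reads of other loci may be among its counts. The gene lies on chromosome 10 (82629828 to 82650799) and had 138 UMIs without and 135 with azacitidine. Over the summed libraries this is 5.05 CPM (exact Poisson interval 4.24 to 5.96) without and 3.52 (2.95 to 4.17) with the drug. These Poisson intervals cover counting error only and leave out the spread between libraries. The libraries lay between 2.36 and 9.46 CPM (median 4.86) without and between 1.48 and 6.68 CPM (median 3.61) with the drug, and 11 of 16 treated libraries were under the untreated median. This gave a log2 fold change of -0.49 with an interval from -0.91 to -0.08 (edgeR with no filter, unadjusted p = 0.021, adjusted p = 0.24). The interval also lay under 0 with DESeq2 (-0.95 to -0.08), limma-voom (-0.97 to -0.14), other size factors (-0.92 to -0.09) and the filter at 5 UMIs (-0.93 to -0.09). It did so too with the run as a term (-0.85 to -0.08) and, barely, with an estimated correlation within runs (limma-voom, -1.08 to -0.01, adjusted p = 0.59). It reached 0 in other settings: with the sums of runs it was -0.98 to 0.02, without the 5 libraries that lay apart it was -0.78 to 0.07, and without numbers 1 to 4 it was -0.87 to 0.02. With spike-in scaling the interval was -0.69 to 0.42.

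Other loci share sequence or position with Tdg, and they were looked up after its value was seen. Its processed pseudogene Tdg-ps on chromosome 15 was counted as a gene of its own with 93 and 117 UMIs, and reads could have been split between the copies. With both summed, the log2 fold change was -0.34 with an interval from -0.69 to 0.0022 (edgeR with no filter, unadjusted p = 0.051, adjusted p = 0.38). The 3′ end of Tdg also overlaps by 367 bases that of Glt8d2, a glycosyltransferase-family gene on the other strand. Glt8d2 had 15.7 ± 2.92 CPM without and 11.4 ± 3.07 with azacitidine, and fell by 0.47 (SE 0.12) on the log2 scale (edgeR, adjusted p = 0.0086). That call was lost with an estimated correlation within runs (limma-voom, adjusted p = 0.21), on summed runs (edgeR, adjusted p = 0.50), without the 5 libraries that lay apart (adjusted p = 0.084), without numbers 1 to 4 (adjusted p = 0.14) and with spike-in scaling (adjusted p = 0.65). Without a statement on strand the reads of this stretch cannot be told apart.

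All of these fold changes are relative to the other transcripts of a library. Scaling by the added ERCC spike-in RNA, which made up 0.124% ± 0.036 of UMIs without and 0.107% ± 0.039 with the drug, shifted the median log2 fold change over all genes upward by 0.31. Values were then 0.21 (log2 fold change, interval -0.19 to 0.61) for Dnmt1, 0.27 (-0.14 to 0.68) for Uhrf1, 0.28 (-0.16 to 0.73) for Hells and 0.16 (-0.32 to 0.65) for Dnmt3a. Uhrf2 and Dnmt3b were also above 0, at 0.20 and 0.28. Tet1, Tet2, Tet3 and Tdg stayed below 0, at -0.06, -0.03, -0.01 and -0.13. None was called under this scaling (edgeR, lowest adjusted p = 0.31, for Uhrf1), where 3.8% of the 9344 genes past the filter were. Those calls were almost all in 1 direction, 354 as higher and 1 as lower, against 341 and 187 in the main test. Dnmt3b, Tet1 and Tdg were again read from a fit with no filter. A difference in the number of cells and a difference in the RNA per cell cannot be told apart in such bulk libraries.

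Dnmt1, Uhrf1 and Hells are known to be expressed with DNA replication, and their promoters were searched for the letters to which E2F factors, the regulators of S-phase genes, are known to bind. The motifs were TTTCGCGC, TTTGGCGC and TTTCCCGC on both strands, in windows from 250 bases before to 50 after each RefSeq start (GRCm38.p6). At least 1 motif was found in 1.84% of 32851 windows of all genes. All 10 genes had a window, 15 in all, and 3 windows held a motif, namely those of Dnmt1, Uhrf1 and Hells. These 3 windows held 33, 33 and 34 CG dinucleotides, where the median over all windows was 7. The other windows of the 10 genes held from 2 to 57. Each motif itself contains CG, and the share of 1.84% was not matched for CG content. The sites are shown because these are the genes whose co-variation is described next. Capitals mark the motif, read 5′ to 3′ along the gene, and in Dnmt1 it is the reverse complement of TTTCGCGC.
Dnmt1: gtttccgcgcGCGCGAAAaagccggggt
Uhrf1: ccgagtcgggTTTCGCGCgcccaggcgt
Hells: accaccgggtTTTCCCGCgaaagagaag
The Dnmt1 stretch is chr9:20952825-20952852 on the minus strand, the Uhrf1 stretch chr17:56304118-56304145 and the Hells stretch chr19:38930918-38930945, both on the plus strand. Relative to a RefSeq start of the gene the motifs begin at -219, -185 and -62. In GENCODE M21 the Dnmt1 motif is exonic in 2 transcripts, the Hells motif in 1, and the Uhrf1 motif is intronic in 2 transcripts that start further upstream. A second motif in the same Dnmt1 window, TTTGGCGC, lies after the start. The matches are letters in a window and not measured binding.

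Across the 32 libraries, with each group's mean removed, Dnmt1 and Uhrf1 had a positive correlation that missed the threshold after adjustment, and the correlations of Hells with both had no common sign across runs. For Dnmt1 and Uhrf1, Pearson's r was 0.42 (permutation within groups, p = 0.022, adjusted over 3 pairs p = 0.065) and Spearman's rho was 0.41 (p = 0.022, adjusted p = 0.067). Without the 2 libraries farthest from the median of Dnmt1, r was 0.42. Within the runs (n = 8 libraries each) r was 0.51, 0.67, 0.57 and -0.14. The means removed were those of the whole groups, so these values keep each run's own difference between the groups. The pair passed the threshold when library totals replaced the TMM sizes (r = 0.52, permutation, adjusted p = 0.0098). Centred on each run and group, r was 0.32 (permutation, adjusted p = 0.20) and 0.15 without the 2 farthest libraries, and without numbers 1 to 4 it was 0.35 (permutation, n = 24, adjusted p = 0.16). Libraries of a run are not independent.

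For Dnmt1 and Hells r was -0.13 (permutation, p = 0.49, adjusted p = 0.73) and rho -0.07 (p = 0.71, adjusted p = 0.71), and r was -0.16 without the 2 farthest libraries. Within the runs, again with only the whole-group means removed, Dnmt1 and Hells gave r of 0.43, -0.54, -0.75 and -0.08. Centred on each run and group r was -0.32 (permutation, adjusted p = 0.20), and without numbers 1 to 4 it was -0.35 (permutation, n = 24, adjusted p = 0.16). For Uhrf1 and Hells r was 0.04 (permutation, p = 0.85, adjusted p = 0.85) and rho 0.08 (p = 0.67, adjusted p = 0.71), and r was -0.003 without them. Computed the same way within the runs, Uhrf1 and Hells gave r of 0.68, -0.32, -0.63 and -0.77. The sign thus changed between numbers 1 to 4 and the rest.

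**Figure D4:**
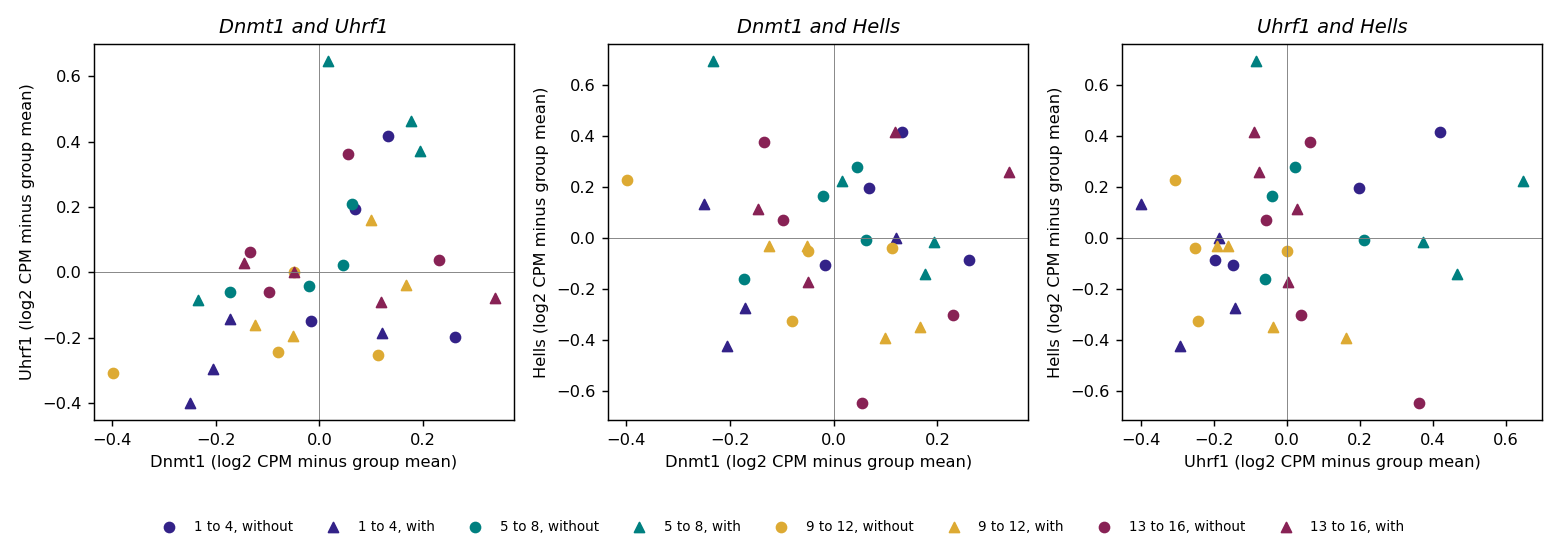
Log2 CPM minus the group mean of Dnmt1, Uhrf1 and Hells, plotted in pairs over 32 libraries; colours are runs of 4 replicate numbers, circles are libraries without and triangles libraries with azacitidine. Dnmt1 and Uhrf1 slope upward (r = 0.42), the pairs with Hells show no common slope (r = -0.13 and 0.04).

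The genes whose levels over the 32 libraries were most like Dnmt1, group means removed, were Wwp1, Sfr1, Rc3h2, Mier1 and Actb, with Pearson's r from 0.58 to 0.64. Those most like Uhrf1 were Amz2, Fen1, Tmem138, Mob3a and Cherp, with r of 0.84, 0.76, 0.74, 0.73 and 0.71. Fen1 encodes the flap endonuclease of lagging-strand synthesis and is on the S-phase list below. These genes are the highest of all 9344 tested and share libraries and depth with the gene they resemble, so the values are a description.

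The wider machinery was read from 6 lists, and 3 of their genes were called, all as higher. Over all 9344 genes tested 5.65% were called, 341 as higher and 187 as lower, and 17.1% had an unadjusted p under 0.05, and the list counts are to be read against these shares. Of 10 genes of maintenance partners 7 were tested and edgeR called 0 (1 at an unadjusted p under 0.05), with a median of -0.03. Pcna, the replication clamp that tethers DNMT1, stood at 58.7 ± 5.62 CPM in untreated and 64.7 ± 8.31 in treated libraries (edgeR, adjusted p = 0.20), and Usp7, a deubiquitinase that binds DNMT1, 5.66 ± 1.82 and 6.63 ± 2.77 (adjusted p = 0.55). Of 5 other genes of cytosine methyltransferases 1 was tested, the RNA methyltransferase gene Nsun2, with a log2 fold change of 0.09 (edgeR, adjusted p = 0.80). Of 13 genes of methyl donor supply 9 were tested and edgeR called 0 (1 unadjusted), with a median of -0.04. Shmt2, of mitochondrial folate metabolism, stood at 171 ± 25.1 CPM in untreated and 151 ± 17.4 in treated libraries (edgeR, adjusted p = 0.12), and Mtrr, which reactivates methionine synthase, 16.5 ± 3.26 and 18.2 ± 3.32 (adjusted p = 0.54). With the run as a term Shmt2 was called as lower (edgeR, adjusted p = 0.020). DESeq2 and limma-voom also called 0 in these 3 lists.

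Of 8 readers 6 were tested and edgeR, DESeq2 and limma-voom called 0 (1 unadjusted in edgeR), with a median of 0.10. Mbd1, a methyl-CpG binding repressor, had 41.0 ± 7.04 CPM without and 48.7 ± 8.45 with azacitidine, a log2 fold change of 0.25 (edgeR, adjusted p = 0.10), and it was called without the 5 libraries that lay apart (adjusted p = 0.022) without numbers 1 to 4 (adjusted p = 0.014) and with the run as a term (adjusted p = 0.0067). Summed runs gave no call for it (edgeR, adjusted p = 0.94), nor did an estimated correlation within runs (limma-voom, adjusted p = 0.58). Mbd3, a subunit of the NuRD repressor complex, had a log2 fold change of -0.01 in the main test, and was called as lower without numbers 1 to 4 (-0.31, edgeR, adjusted p = 0.040). Mbd2, of the same family, had a log2 fold change of 0.24 (edgeR, adjusted p = 0.51). Of 18 genes of demethylation and base excision repair 14 were tested, 1 rose and 0 fell, with a median of -0.01. The gene that rose was Gadd45g, a stress-induced gene reported to promote demethylation, at 62.0 ± 10.4 CPM in untreated and 87.6 ± 18.5 in treated libraries. It rose by 0.50 on the log2 scale (SE 0.09, edgeR, adjusted p = 0.00039). It was higher by 0.49, 0.30, 0.57 and 0.59 in the 4 runs, and 12 of 16 treated libraries were above the highest untreated one. In the test of summed runs it was not called (edgeR, adjusted p = 0.26). Apex1, the endonuclease that cuts at abasic sites, missed the threshold in the main test at 257.5 ± 27.97 CPM without and 229.2 ± 20.9 with azacitidine, a log2 fold change of -0.17 (SE 0.05, edgeR, adjusted p = 0.051). It was called as lower by DESeq2 (adjusted p = 0.035), by edgeR with a filter at a mean of 5 UMIs (adjusted p = 0.040), with the run as a term (adjusted p = 0.017), without the 5 libraries that lay apart (adjusted p = 0.026) and without numbers 1 to 4 (adjusted p = 0.038). It was not called by limma-voom (adjusted p = 0.051), with no filter (edgeR, adjusted p = 0.13), on summed runs (edgeR, adjusted p = 0.72) or with an estimated correlation within runs (limma-voom, adjusted p = 0.59), and its sign turned with spike-in scaling (0.13). DESeq2 called Gadd45g and Apex1 of this list, and limma-voom Gadd45g alone.

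Of 24 S-phase genes 23 were tested, 2 rose and 0 fell, with a median of -0.02. They were Ccne1, the cyclin of S-phase entry, with a log2 fold change of 0.67 (SE 0.15, edgeR, adjusted p = 0.0036), and Cdt1, which loads the replicative helicase, with 0.39 (SE 0.10, adjusted p = 0.010). Neither was called when runs were summed (edgeR, adjusted p = 0.20 and 0.67) or with an estimated correlation within runs (limma-voom, adjusted p = 0.22 and 0.094). Rrm2, a subunit of ribonucleotide reductase, had a log2 fold change of 0.33 (edgeR, adjusted p = 0.29) and was called with the run as a term (adjusted p = 0.041). The mean log2 CPM of the 23 genes was 5.03 ± 0.11 without and 5.08 ± 0.16 with azacitidine, and differed by -0.05, 0.17, -0.02 and 0.10 in the 4 runs. Beside these values stand the changes of Uhrf1 in the same runs, -0.44, 0.24, 0.03 and -0.27. Those of Hells were -0.29, 0.10, -0.20 and 0.19, and those of Dnmt1 were -0.35, -0.03, 0.02 and -0.01. What part S-phase content had in the levels of Dnmt1, Uhrf1 and Hells was not tested.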

How the data were processed

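UMI counts were read from 1 table of 32 libraries, in which the authors deposited whole-number counts per gene without normalization. Per the labels' protocols, RNA came from a column kit and cDNA was barcoded, pooled and amplified with UMIs before a transposase-based library step. Bedtools 2.17.0, STAR 2.4.0 and the build mm10 are named in the submitters' processing notes. Annotation, UMI collapsing and strand are not given in the sources used here. The 68 ERCC rows (0.106% of UMIs) stayed out of library sizes and tests. Symbols and positions came from GENCODE M21 (21506 of 21829 genes matched, all 10 genes among them), promoter sequences from RefSeq GRCm38.p6.

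Groups came from the titles. The main test was edgeR 4.0.16 (TMM, default filter by group, robust quasi-likelihood, two-sided) over all genes; 95% intervals used the SE from the F statistic. CPM used TMM library sizes, and correlations used log2 CPM with a prior count of 2 and 100000 permutations. Software was R 4.3.3 with limma 3.58.1 and DESeq2 1.42.0, and Python 3.11.15 with scipy 1.17.1, numpy 2.4.6, matplotlib 3.10.9 and pandas 2.3.3. The tests were tried on simulated data. Of each list, called genes were named, up to 4, otherwise the 2 of lowest p; Rhox5 and, for Dnmt1 and Uhrf1, the 5 most alike genes were named too. Tdg-ps, Glt8d2, B230319C09Rik, Apex1, Mbd3, Rrm2 and marker genes were named after their values were seen. The genes, lists, runs and alternatives were chosen with earlier results of these data known; the sum of Tdg and Tdg-ps was added after seeing the data.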

Additional observations from a re-analysis of the deposited data

How the results depend on the processing

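None of the 10 genes was called under any of the 12 other settings (other normalizations, tests and filters, terms for replicate number or run, sums of runs, and libraries left out), with a lowest adjusted p = 0.11, for Tet2 with the replicate block. Of 116 recomputed fold changes 105 kept their direction. With spike-in scaling the sign turned for Dnmt1 (0.21), Dnmt3a (0.16), Uhrf1 (0.27), Uhrf2 (0.20) and Hells (0.28). That scaling moved the median log2 fold change over all genes upward by 0.31, with a lower spike-in share in the treated libraries. Without numbers 1 to 4 it turned for Uhrf1 (0.032), Hells (0.064) and Dnmt3b (-0.091), and without the 5 libraries that lay apart for Hells (0.0081) and Dnmt3b (-0.097). Dnmt3b was also at -0.031 with the replicate block.

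The number of all genes called, 528, was 897 with the replicate block, 860 with no filter, 993 with a run term, 108 with the sums of runs and 178 with limma-voom and a correlation within runs. Of the genes on the 6 lists, 3 in the main test, 7 were called with the block by replicate number, 7 with the term for runs, 0 with the sums, 1 with the correlation within runs, 5 without the 5 libraries and 6 without numbers 1 to 4. The replicate block, like the run term, added Apex1, Mbd1, Rrm2 and Shmt2, and under the block the intervals of Tdg (-0.84 to -0.09) and Tet2 (-0.71 to -0.08) lay under 0 while that of Tet3 did not. Library totals gave r = 0.52 for Dnmt1 and Uhrf1 (adjusted p = 0.0098, permutation) and r = 0.0037 for Dnmt1 and Hells. Uhrf1 and Hells gave r = -0.29 centred on runs and -0.22 without numbers 1 to 4. The causes of these differences between settings were not tested.

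Groups share replicate numbers, and the labels do not say whether equal numbers are pairs. Of 16 same-numbered pairs 12 had a correlation of deviations over 0.1 (mean 0.22, range -0.29 to 0.83). Of the 16 untreated libraries 4 had their own number as the best match among the treated ones. Whether the replicate block is a true pairing was not tested. Depth limits Dnmt3b, Tet1 and Tdg: at 84, 112 and 273 UMIs in all, their intervals spanned 1.29, 1.16 and 0.83 on the log2 scale, against 0.27 for Dnmt1 with 2688 UMIs. The filter at a mean of 5 UMIs left no value for Dnmt3b and Tet1.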
